A study of Mus musculus with 2 samples.

Results

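Defensins are small cysteine-rich peptides that kill or inhibit microbes, and their transcripts were followed here in luminal epithelial cells of the mouse prostate. The account covers 7 of the 19320 features of a single-cell RNA sequencing (scRNA-seq) table. They are the alpha-defensin features Defa20, Defa21, Defa22, Gm21002, Gm15308 and Gm15293 and the beta-defensin Defb50. They were chosen by their measured levels in these same data, where earlier results had shown them among the genes that set luminal cells apart, so their levels in luminal cells and luminal clusters are given as descriptions and without a test. The tissue came from R26 mTmG/hAR:Osr1 Cre/+ mice of mixed C57BL/6 and 129S1/SvImJ background. In these mice Cre under the control of Osr1 switches on a human androgen receptor transgene (hARtg) and replaces membrane Tomato with membrane GFP (mGFP) from the mTmG reporter. There were 2 samples, prostatic intraepithelial neoplasia (PIN) from mice aged 6 months and prostatic adenocarcinoma (PCa) from mice aged 12 months. Each sample was 1 library, every animal carried the driver, the transgene and the reporter, and no prostate without the transgene was analysed here.

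Alpha-defensins are best known from Paneth cells, the secretory cells at the base of small intestinal crypts, which store them as propeptides in granules. Matrilysin, the product of Mmp7, cleaves the mouse propeptides into active peptides. Wnt signalling through beta-catenin and Tcf/Lef factors sustains Paneth cell maturation and is known to act on alpha-defensin promoters there. Beta-defensins are made by many epithelia, and several of them are abundant in the male reproductive tract. All 7 genes lie on mouse chromosome 8 in the files' build, mm10, where the alpha-defensins form a tandem array. RefSeq places them between Defa21 at chr8:21025545-21026517 and Gm15308 (RefSeq Defa32) at chr8:21529030-21530012, with Defa22 at chr8:21162277-21163249, Gm15293 (Defa41) at chr8:21201604-21202446, Gm21002 (Defa33) at chr8:21391811-21392792 and Defa20 at chr8:21509258-21510237. Defb50 lies farther along at chr8:21823539-21831296.

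The promoters of 5 of the 7 genes were held in the RefSeq table for GRCm38.p6, the assembly behind mm10, namely those of Defa20, Defa21, Defa22, Gm15308 and Gm15293. They are shown because they show how alike these genes are upstream of the start site and because each holds the letters ATCAAAG, a core recognised by Tcf/Lef factors. Each line runs 5′ to 3′ on the plus strand, starts 60 bases before the first ATCAAAG and ends 20 bases after the TATAAA letters. Capitals mark ATCAAAG.
Defa21 and Defa22: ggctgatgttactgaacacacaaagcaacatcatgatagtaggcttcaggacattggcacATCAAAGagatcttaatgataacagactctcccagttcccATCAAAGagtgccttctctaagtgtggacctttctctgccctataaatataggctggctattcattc
Defa20 and Gm15308: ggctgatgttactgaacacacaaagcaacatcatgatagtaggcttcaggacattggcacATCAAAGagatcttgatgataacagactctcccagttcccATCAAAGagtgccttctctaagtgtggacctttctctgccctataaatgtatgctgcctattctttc
Gm15293: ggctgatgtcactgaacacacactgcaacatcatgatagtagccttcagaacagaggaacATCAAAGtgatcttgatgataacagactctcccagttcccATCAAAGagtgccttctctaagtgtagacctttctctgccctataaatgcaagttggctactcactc

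The stretches lie at chr8:21025373-21025539 for Defa21, chr8:21162105-21162271 for Defa22, chr8:21509086-21509252 for Defa20, chr8:21528860-21529026 for Gm15308 and chr8:21201389-21201555 for Gm15293. Over these 167 bases Defa21 and Defa22 did not differ, and neither did Defa20 and Gm15308. The Defa20 and Defa21 stretches differed at 5 bases, and that of Gm15293 differed from each of the other four at 17 bases. In all 5 promoters ATCAAAG occurred at 2 places 40 bases apart, at 112 and 72 bases before the RefSeq start of Defa21. The search covered the 250 bases before each start and both strands (ATCAAAG and CTTTGAT, which do not overlap each other or TATAAA in these promoters). Among all 32851 promoters of that length, 3.21% held at least 1 match and 0.0822% held 2 or more. Of the 11 alpha-defensin features with a promoter in the table, 7 had 2 matches, 3 had 1 and 1 had none. The letters AGAACA, a half-site of the androgen receptor, were searched in the same way. They occurred in 1 of the 5 promoters, that of Gm15293, and in 16.1% of all promoters. These are matches of letters and say nothing of whether a factor binds there.

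The likeness extends into the transcripts, which bears on how far the levels of single genes can be told apart. Between the annotated transcripts of Defa20 and Gm15308 the identity was 99.8%, and it was 99.3% between Defa21 and Defa22. Of the 90-base windows of the Defa20 and Gm15308 transcripts, 75.3% also occurred in another of the 20 alpha-defensin transcripts compared. The share was 45.3% for Defa21, 45.2% for Defa22 and 18.2% for Gm15293, whose closest relative was Gm14850 at 94.3%. Reads from shared windows cannot be placed on 1 gene, so the levels of the single genes and the split of signal among them are uncertain. Their sum does not depend on the split. It would still lack any reads set aside for matching several genes, a share that was not measured and may differ between genes. For that reason the summed unique molecular identifiers (UMIs) of the 6 alpha-defensins are given beside the single genes.

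The cells split by the ending of their barcode into barcode set 1 and barcode set 2. Set 1 has as many cells as the study states for the PIN sample and set 2 almost as many as for the PCa sample, and the mean UMIs and genes per cell of the sets are likewise equal or close to those stated. Neither the labels nor the columns name the tissue of a cell, so no cell was assigned to PIN or PCa and the word tumour was not checked. After doublet removal 6177 cells of set 1 and 9235 of set 2 remained, with medians of 16962 and 14678 UMIs per cell. The sets shared 67 barcodes. Luminal-like cells numbered 1381 in set 1 and 7497 in set 2. In set 2 they carried the luminal keratins Krt8 (8182 CPM, that is UMIs in every 1000000 UMIs summed over the group) and Krt18 (7577 CPM), with Ptprc of leukocytes at 0.209 CPM, Pecam1 of endothelium at 2.72 CPM and Krt5 of basal cells at 9.21 CPM. Secretory genes of the mature prostate were lower than in set 1, with Pbsn at 353 CPM against 6419 CPM. EGFP, taken as mGFP, stood at 10179 CPM in set 2 and 1561 CPM in set 1, and ARQ, taken as hARtg, at 1528 and 251 CPM. Intervals are 95% limits of counting error only, since there were no replicates to give a spread.

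The alpha-defensins were abundant in luminal-like cells of barcode set 2, though not only in that class. Their sum stood at 1837 CPM (1831 to 1844) in luminal-like cells of set 2, from 298863 UMIs, and at 3.15 CPM (2.65 to 3.72) in those of set 1, from 140 UMIs. By gene, set 2 held 501 CPM of Gm15308, 426 CPM of Defa20, 280 CPM of Gm21002, 223 CPM of Defa22, 215 CPM of Gm15293 and 192 CPM of Defa21. In set 1 none of them passed 1.44 CPM, the value of Defa20, and Defa21 and Defa22 had 2 UMIs each. UMIs count 3′ ends and were not divided by transcript length. Because Gm15308 with Defa20, and Defa21 with Defa22, share many windows, the order within each of these pairs is uncertain. A cluster led by Clu and Krt6a got no class name and is in none of the classes. Its 256 cells of set 2 held 506 CPM of Gm15308 and 408 CPM of Defa20.

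The log2 ratio of set 2 over set 1 for the sum was 9.19 (8.95 to 9.44), while the median of all genes was -0.17. All 6 alpha-defensins were at least 2-fold higher in set 2, as were 10.1% of the 9441 genes that reached 5 CPM. The contrast was among those that chose the genes, so nothing is read from the count. Their log2 ratios ran from 8.21 (7.86 to 8.59) for Defa20 to 12.28 (10.42 to 15.32) for Defa22, whose denominator was 2 UMIs. Over all of set 1 there were 287 alpha-defensin UMIs in 226 cells, with at most 5 in a cell, against 312320 in set 2. None of the 287 lay in cells whose barcode also occurred in set 2.

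Luminal-like cells of the sets fell mostly into different clusters. Those of set 1 were mainly in clusters led by Ren1 and Tgm4 (640 cells), Msmb and Pbsn (414 cells) and Svs5 and Pate4 (283 cells). Those of set 2 were mainly in clusters led by Defa22 and Fam25c (3109 cells), Gulo and Mt4 (1667 cells), Svs5 and Pate4 (1616 cells) and the proliferation genes Ube2c and Mki67 (789 cells). Like clusters were therefore also compared. Epithelial cells were clustered again. The 21 alpha-defensin and 24 beta-defensin features found by symbol or synonym, Axin2, EGFP and ARQ were kept out of the features. The clusters are called by number and leading genes. In cluster 1, led by the seminal vesicle genes Svs5 and Svs4, the alpha-defensin sum was 1665 CPM (1654 to 1676) over 2057 cells of set 2 and 0.740 CPM (0.297 to 1.52) over 286 cells of set 1. In cluster 5, led by Ren1 and the prostate transglutaminase Tgm4, it was 141 CPM (133 to 151) and 6.56 CPM (5.36 to 7.95). In cluster 4, led by Krt6a and Clu, it was 1484 CPM (1448 to 1521) and 3.71 CPM (3.12 to 4.38). The counting intervals of the sets did not overlap in any of these 3 clusters, but they leave out the spread between cells. The set 2 value of cluster 5 lay under the 305 CPM that leukocyte-like cells of set 2 held. Cluster 4 had 184 cells of set 2 and 1194 of set 1. Over both sets together 8.13% of its cells were luminal-like, and the share in set 2 alone was not computed.

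Transcripts released from broken cells enter every droplet, so the level in cells that should not make defensins was taken as the background. In set 2 the alpha-defensin sum was 305 CPM (282 to 329) in leukocyte-like cells, 328 CPM (304 to 353) in fibroblast-like cells and 136 CPM (120 to 153) in endothelium-like cells. Luminal-like over leukocyte-like cells gave a log2 ratio of 2.59 (2.48 to 2.70). Counted as 2-fold higher were all 6 alpha-defensins and 27.6% of the 9954 genes. Single ratios ran from 2.15 (1.97 to 2.34) for Gm15308 to 3.40 (2.98 to 3.85) for Defa22. The ratio for the sum was 3.31 with every cell weighing the same, 3.38 with thinned cells and 3.76 with endothelium-like cells as background.

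Basal-like cells of set 2 held 214 CPM (197 to 233) and proximal or urethral luminal-like cells 269 CPM (254 to 285) of the alpha-defensin sum. Both values lay below the leukocyte-like and above the endothelium-like level, and whether they exceed free RNA was not tested. Without thinning, 66.7% of the proximal or urethral luminal-like cells had an alpha-defensin UMI, at a median of 17962 UMIs per cell, and 24.4% after thinning, beside 52.9% and 27.7% of leukocyte-like cells. For every 1000 EGFP UMIs there were 180.5 alpha-defensin UMIs in luminal-like cells, 268 in leukocyte-like, 131 in fibroblast-like, 108 in endothelium-like, 38.8 in basal-like and 66.8 in proximal or urethral luminal-like cells. Leukocyte-like and luminal-like cells were alike in the part of the sum taken by Defa20 (21.1% and 23.2%) and Gm21002 (14.8% and 15.2%). The parts differed more for Gm15308 (37.0% and 27.3%), Defa22 (6.94% and 12.1%) and Defa21 (6.33% and 10.5%), leukocyte-like cells first.

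**Figure D1:**
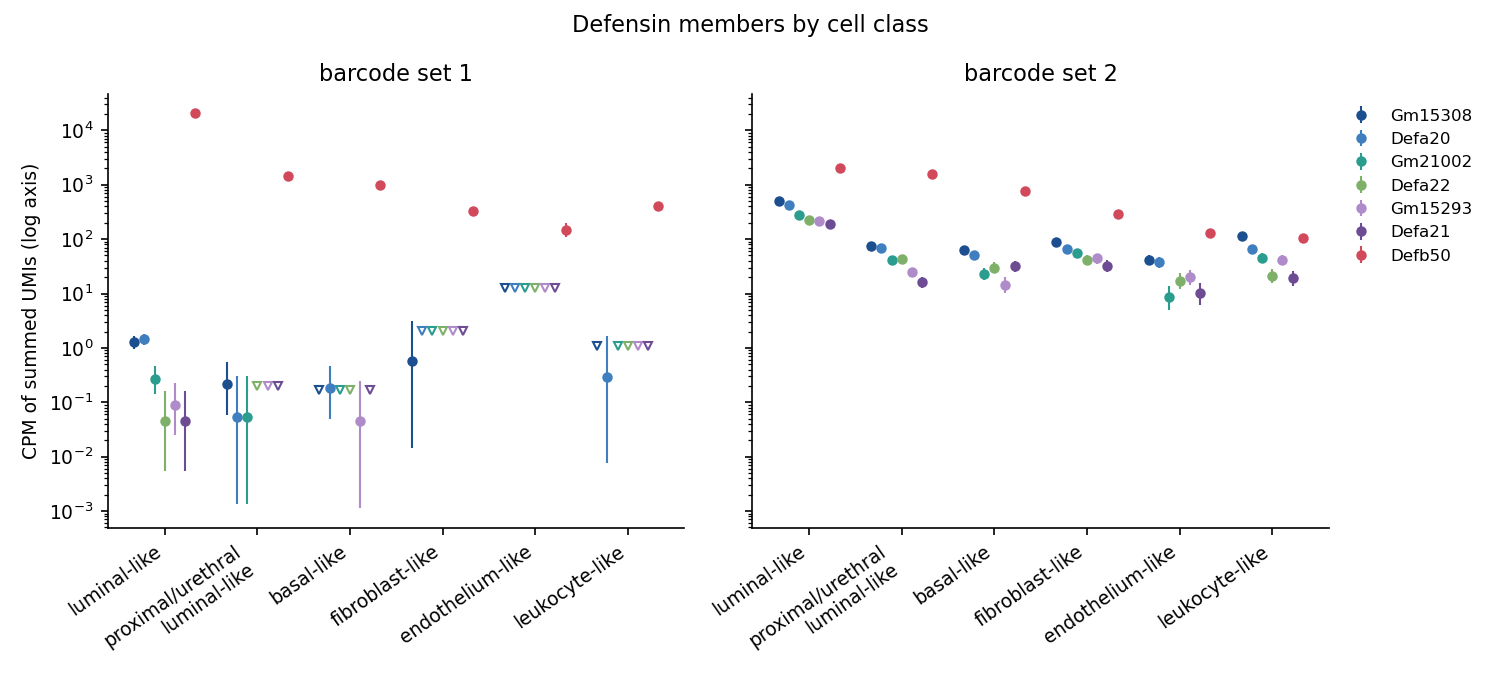
CPM of summed UMIs (log axis) of the 7 genes in 6 cell classes, barcode set 1 on the left and set 2 on the right. Cells of clusters without a class name are left out. Points are class totals, bars 95% Poisson intervals and open triangles the upper limits where no UMI was counted; in set 2 the 6 alpha-defensins lie between 192 and 501 CPM in luminal-like cells, and in set 1 none passes 1.44 CPM there, while Defb50 is highest in luminal-like cells of set 1.

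Detection per cell was compared after thinning each cell to 3000 UMIs, which in set 2 left out 19 leukocyte-like cells and 87 luminal-like ones. At least 1 alpha-defensin UMI was present in 77.0% (76.0 to 77.9%) of luminal-like cells and in 27.7% (22.1 to 33.9%) of leukocyte-like cells of set 2. Without thinning the shares were 94.8% and 52.9%, at medians of 16542 and 7459 UMIs per cell. Gm15308 was seen in 50.8% of thinned luminal-like cells against 16.4% of leukocyte-like cells, Defa20 in 46.7% against 8.40%, and Gm21002 in 36.8% against 4.62%. Gm15293 reached 28.3% against 3.78%, Defa22 24.1% against 3.36% and Defa21 22.7% against 3.78%. In set 1, 0.806% (0.403 to 1.44%) of thinned luminal-like cells held an alpha-defensin UMI, and 0 of 381 leukocyte-like cells did, which allows a share of up to 0.787% by the limit of 3 counts and 0.964% by the exact interval, so the luminal-like share of set 1 cannot be told apart from that of leukocyte-like cells. Without thinning the shares in set 1 were 7.68% at a median of 28959 UMIs and 0.239% at a median of 4692 UMIs. The log2 ratio of luminal-like over leukocyte-like cells in set 1, 3.41 (0.91 to 8.72), rested on 1 leukocyte-like UMI and was -0.13 (-1.06 to 0.97) without integration of the sets.

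Within set 2 the alpha-defensins formed a gradient over epithelial clusters. Cluster 0, led by Cox4i2 and Fam25c and made up of 2985 cells of set 2 and 1 cell of set 1, was highest with a sum of 2972 CPM (2958 to 2986). Cluster 1 followed at 1665 CPM, cluster 4 at 1484 CPM, and cluster 2, led by the metallothionein gene Mt4 and by Gulo, at 880 CPM (872 to 889). The counting intervals of these 4 clusters did not overlap, but they leave out the spread between cells. Clusters 6 (led by Spink1 and Msmb, 234 CPM) and 5 (141 CPM) lay under the leukocyte-like level of 305 CPM. Both lay at or above the endothelium-like level of 136 CPM. Their cells were deeper, with medians of 21109 and 23138 UMIs against 7459 in leukocyte-like and 8518 in endothelium-like cells. CPM do not allow for this, and whether these clusters exceeded free RNA was not tested. EGFP moved along with this divide, at 9256 to 11418 CPM in clusters 0, 1, 2 and 4 and at 2272 and 3475 CPM in clusters 5 and 6, and its part in the result was not tested. Among the 4 high clusters EGFP was highest in cluster 1, at 11418 CPM, with 9773 CPM in cluster 0.

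**Figure D2:**
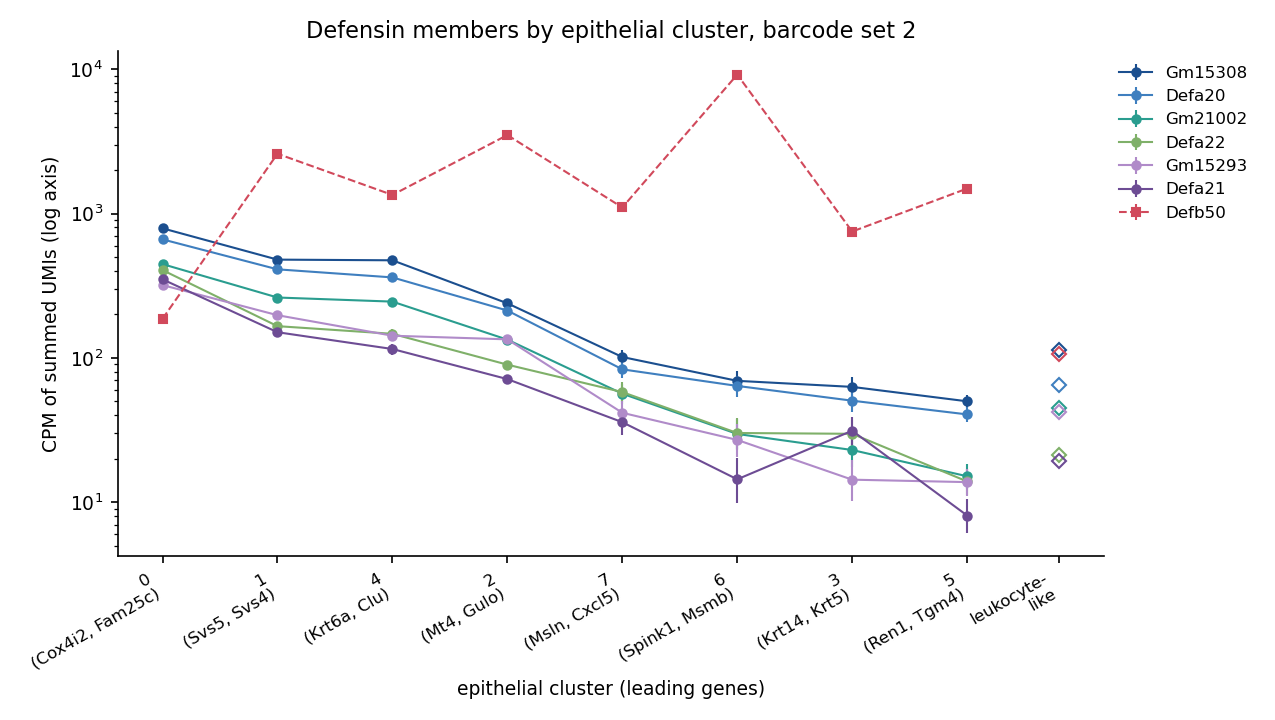
CPM of summed UMIs (log axis) of each gene in 8 epithelial clusters of barcode set 2, ordered by the alpha-defensin sum, with leukocyte-like cells as open diamonds and bars as 95% Poisson intervals. The 6 alpha-defensins fall from cluster 0 to cluster 2 and reach the range of leukocyte-like cells in clusters 6, 3 and 5, and Defb50 has its lowest value, 186 CPM, in cluster 0 and its highest, 9172 CPM, in cluster 6.

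Every one of the 6 alpha-defensins was higher in cluster 0 than in cluster 2, but by unequal amounts. Defa21 stood at 350 and 71.2 CPM, a log2 ratio of 2.30 (2.24 to 2.35), and Defa22 at 405 and 89.7 CPM, a ratio of 2.18 (2.13 to 2.22). This pair had the steepest difference of the 6. Its transcripts are nearly identical, and how far shared reads make the ratios alike was not tested. Gm21002 (446 and 134 CPM, 1.74), Gm15308 (789 and 239 CPM, 1.73) and Defa20 (662 and 213 CPM, 1.64) lay close together. Gm15293 stood at 319 and 134 CPM, a ratio of 1.25 (1.21 to 1.29). No relation between promoter sequence and these ratios was tested. All 6 were 2-fold or more higher, beside 3.49% of the 8621 genes at 5 CPM or more. Defa21 and Defa22 were known from earlier results to lead this cluster, so the count is a description.

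The remaining alpha-defensin features were spread over both directions. Of 15 such features, 8 reached 5 CPM in cluster 0 or cluster 2, and 3 of them were at least 2-fold higher in cluster 0, Gm14850 (log2 ratio 1.81), Gm10104 (1.29) and Defa5 (1.02). Gm15315 was nearly level, with 361 CPM in cluster 0 and 400 CPM in cluster 2. Gm15284 (-0.29), Defa3 (-0.34) and Defa24 (-0.55) were somewhat lower in cluster 0, and Defa17 was lower by over 2-fold (-1.30). As a sum these 15 features held 1374 CPM in cluster 0 and 1024 CPM in cluster 2, a log2 ratio of 0.42 (0.41 to 0.44), against 1.76 (1.74 to 1.77) for the 6 chosen ones. In luminal-like cells of set 2 the chosen genes made up 1837 CPM and the others 1141 CPM, of which Gm10104 held 379 and Gm15315 held 364 CPM. The promoters of Gm10104 and of Gm14850 had 2 and 1 ATCAAAG, and that of Gm15284 had 1.

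**Figure D3:**
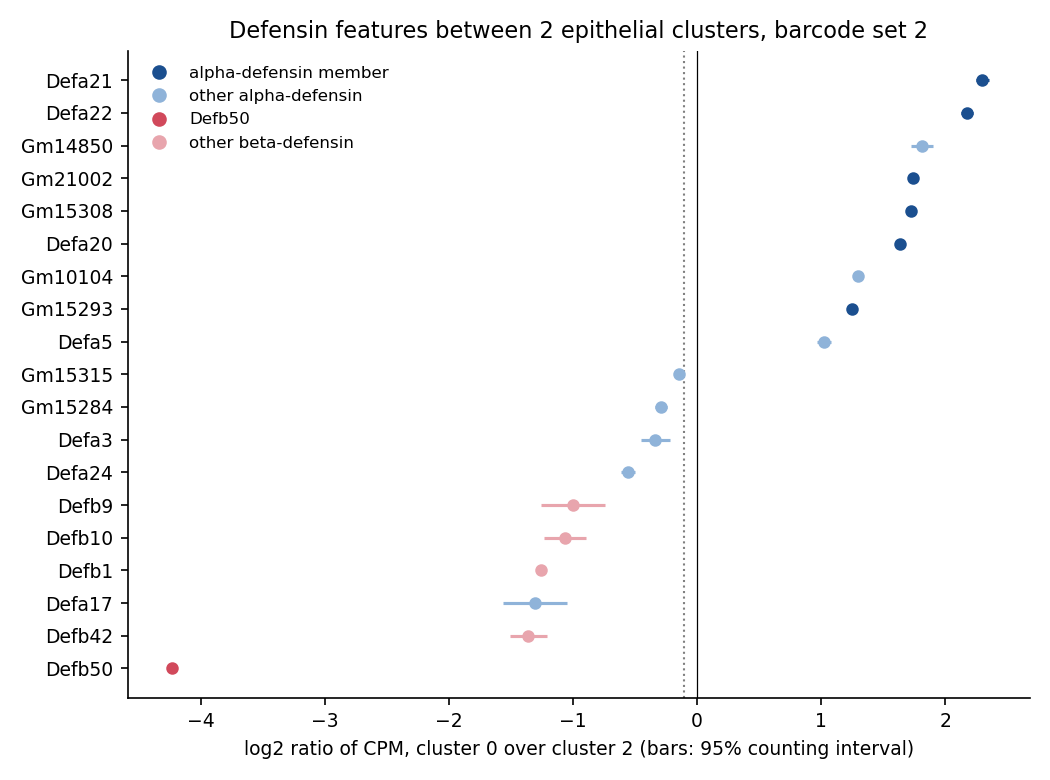
Log2 ratio of CPM in epithelial cluster 0 over cluster 2 of barcode set 2 for each defensin feature with 5 CPM or more in either, with 95% counting intervals as bars and the median of all genes as a dotted line. The 6 chosen alpha-defensins lie between 1.25 and 2.30, the other alpha-defensins on both sides of 0, and Defb50 at -4.23.

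Cells differed widely in alpha-defensin level even within a cluster. Among luminal-like cells of set 2 the median was 12 UMIs (705 CPM), the 90th percentile was 101 UMIs and the highest cell held 995. The 10% of cells with the most alpha-defensin UMIs held 55.8% of all of them. No alpha-defensin was seen in 5.23% of the cells, and all 6 were seen in 31.3%. In cluster 0 the median was 19 UMIs, the 90th percentile was 150 UMIs and the top 10% of cells held 53.4% of the UMIs, so the skew persisted inside the cluster. In cluster 2 the median was 8 UMIs and the top 10% of cells held 47.7%.

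The alpha-defensins occurred in the same cells. Over 7410 thinned luminal-like cells of set 2 the Spearman correlation of their 15 pairs ran from 0.358 (Gm21002 with Gm15293) to 0.511 (Gm15308 with Defa20). The pairs were seen together in 1.37 to 2.15 times as many cells as independence would give, the most for Defa21 with Defa22. In cluster 0 the correlations of the same pairs ran from 0.42 to 0.60. In cluster 1 they ran from 0.29 to 0.46 and in cluster 2 from 0.16 to 0.31. The values over all luminal-like cells also take in the differences between clusters. How far reads shared between near-identical genes bear on any of these values was not tested. Over all 7410 cells Gm15293 correlated at 0.358 to 0.403 with the other 5 genes. The correlation of the sum with the 15 other alpha-defensin features was 0.528. These are descriptions over cells of 1 library, which share depth and free RNA.

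**Figure D4:**
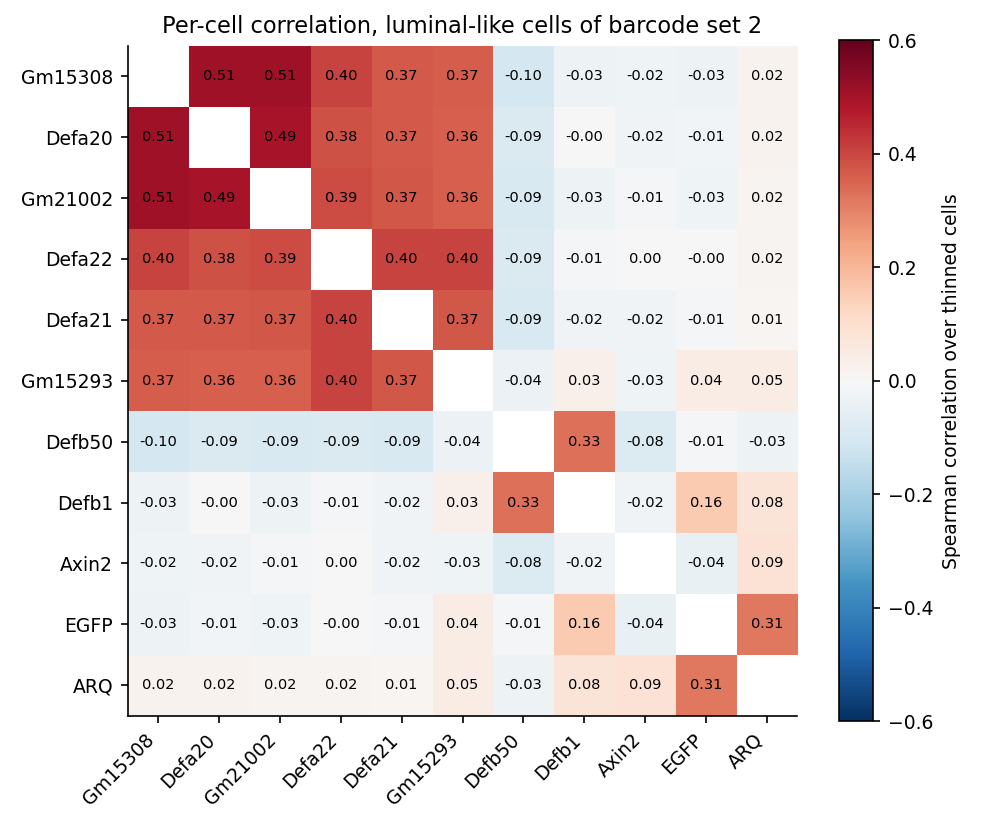
Spearman correlation for each pair of genes over 7410 luminal-like cells of barcode set 2 thinned to 3000 UMIs, with colour from -0.6 (blue) to 0.6 (red). The 6 alpha-defensins form a block at 0.358 to 0.511, Defb50 pairs with Defb1 at 0.332, and values of the alpha-defensins with Axin2, EGFP and ARQ lie between -0.028 and 0.047.

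Axin2, a feedback target that reads out Wnt signalling through beta-catenin, was present in set 2 luminal-like cells at 188 CPM against 13.8 CPM in set 1. Both Axin2 and the alpha-defensins were thus higher in set 2. Within that set the alpha-defensin sum was lower in cells with more Axin2 UMIs after thinning, at 1873 CPM with 0, 1736 CPM with 1, 1611 CPM with 2 and 1333 CPM (1258 to 1412) in 294 cells with 3 or more. The ranks of the cells, by contrast, were nearly unrelated. The Spearman correlation of the alpha-defensin sum with Axin2 was -0.0064 over 7410 thinned cells, and single alpha-defensins ran from -0.026 to 0.0042. Both were seen in 30.3% of cells, where independence gives 29.7%. The sum stood at 1666 CPM in 2859 Axin2-positive cells and 1873 CPM in 4551 Axin2-negative cells, a log2 ratio of -0.17 (-0.20 to -0.14). None of the 6 passed 2-fold in either direction, beside 0.138% of 8679 genes higher and 1.59% lower in Axin2-positive cells, and their ratios ran from -0.24 to -0.12.

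Cluster 0, where the alpha-defensins were most abundant, had a clearer difference. Their sum fell in order of Axin2 UMIs in thinned cells, from 3178 CPM (3128 to 3230) with 0 to 2511 CPM with 1, 2286 CPM with 2 and 1644 CPM (1533 to 1762) in 163 cells with 3 or more. The Spearman correlation in this cluster was -0.12 over 2962 cells. It was 0.011 in cluster 1 and -0.0017 in cluster 2. The sum was nevertheless also lower with more Axin2 in these clusters. In cluster 1 it was 1589 CPM (1551 to 1627) with 0 Axin2 UMIs and 1405 CPM (1335 to 1478) with 1. In cluster 2 it was 929 CPM (898 to 961) with 0, 896 CPM with 1, 696 CPM (635 to 762) with 2 and 775 CPM with 3 or more. Mean Axin2 was 231 CPM in cluster 0 and 220 CPM in cluster 2, and the alpha-defensin sum differed between them by 1.76 on the log2 scale. Whether Axin2 level has a part in that difference was not tested.

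The sum correlated with EGFP at 0.0050 over the 7410 cells and single genes at -0.028 to 0.042. Cells with more than the median of 30 EGFP UMIs held 1628 CPM of the sum and the other cells 1940 CPM, a log2 ratio of -0.25 (-0.28 to -0.22). Gm15293 went the other way, with 209 against 192 CPM (0.12, 0.04 to 0.21), while the other 5 ran from -0.41 to -0.25. None passed 2-fold, beside 0.345% of 8697 genes higher and 1.25% lower. Over the remaining alpha-defensin features the ratio was 0.27 (0.23 to 0.30). Within cluster 1 the correlation with EGFP was -0.15, and it was -0.027 in cluster 0 and 0.019 in cluster 2.

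**Figure D5:**
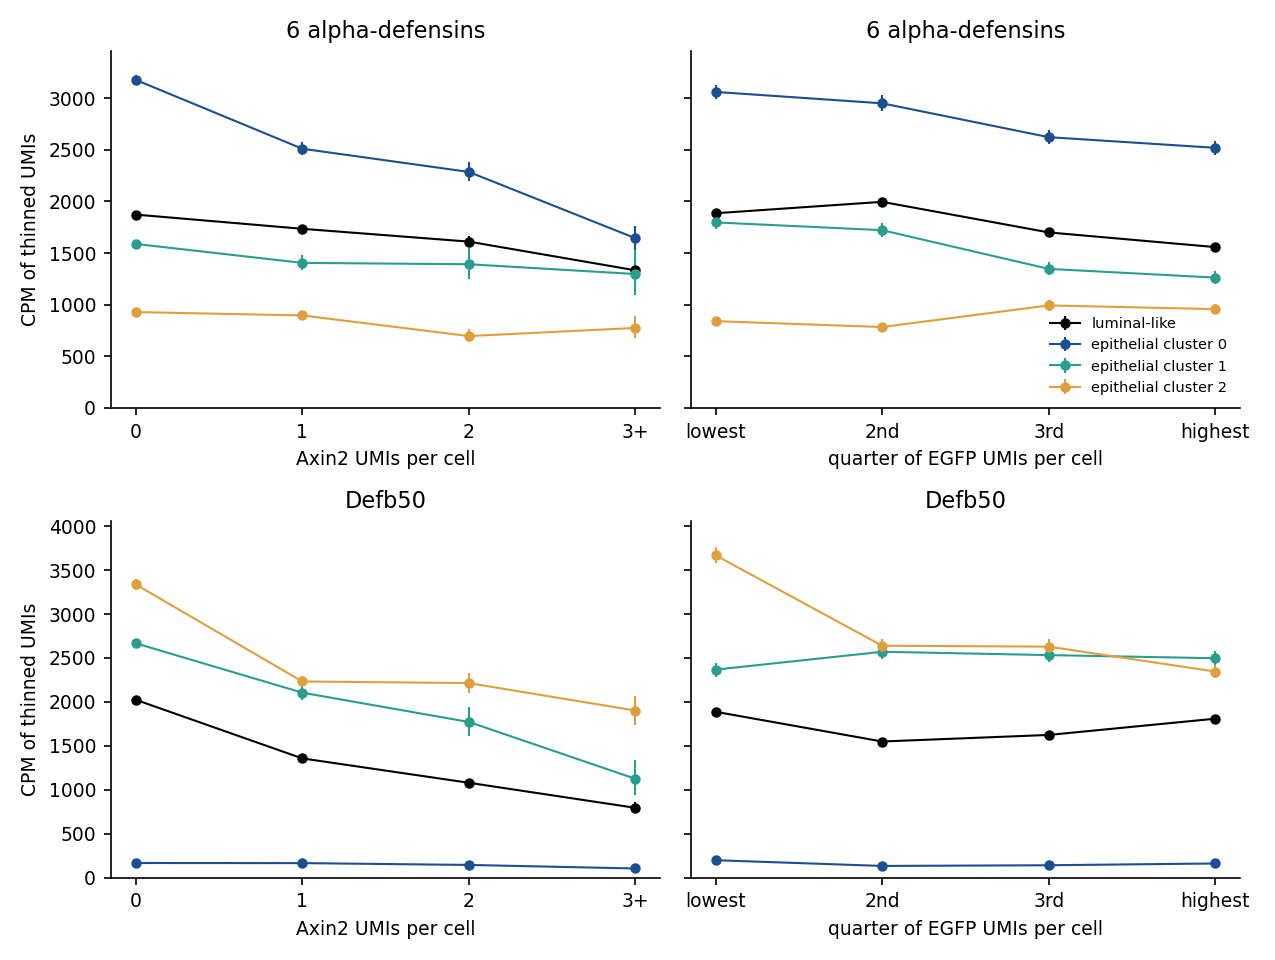
CPM of thinned UMIs of the alpha-defensin sum (top) and Defb50 (bottom) in luminal-like cells of barcode set 2 and in 3 of the epithelial clusters, by Axin2 UMIs per cell (left) and by EGFP level in 4 bins from lowest to highest (right), with 95% Poisson intervals as bars. The alpha-defensin sum of cluster 0 falls from 3178 to 1644 CPM with Axin2, and Defb50 over all luminal-like cells falls from 2025 to 796 CPM. The alpha-defensin sum of cluster 2 is highest, 929 CPM, with 0 Axin2 UMIs and lowest, 696 CPM, with 2.

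Defb50 had the opposite distribution. Luminal-like cells held 20591 CPM (20549 to 20633) of it in set 1 and 2044 CPM (2037 to 2051) in set 2, a log2 ratio of -3.33 (-3.34 to -3.33). It was thus 2-fold or more lower in set 2, as were 17.2% of genes. Set 1 was also higher within several clusters, with 20224 against 2594 CPM in cluster 1, 8373 against 1489 CPM in cluster 5 and 32306 against 9172 CPM in cluster 6, set 1 first. Proximal or urethral luminal-like cells went the other way, with 1455 CPM (1437 to 1472) in set 1 and 1586 CPM (1549 to 1624) in set 2, and cluster 8, with 15 cells of set 2, was level at 1282 and 1284 CPM. Of thinned luminal-like cells, 99.0% of set 1 and 41.2% of set 2 had a Defb50 UMI. Leukocyte-like cells had 47.8% and 20.2%, at medians of 4692 and 7459 UMIs before thinning, so Defb50 UMIs were common in them in set 1. Whether these came from free RNA or from admixed cells was not tested. The leukocyte-like cells also differed in kind between the sets. Of the 257 of set 2, 234 lay in a cluster led by Lyz2 and C1qa. Of the 418 of set 1, 260 lay in a cluster led by Rgs1 and Ramp3.

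Against this background Defb50 was 404 CPM (382 to 426) in leukocyte-like cells of set 1 and 107 CPM (93.4 to 122) in those of set 2. The luminal-like over leukocyte-like log2 ratio was 5.67 (5.60 to 5.75) in set 1, where 22.8% of 10570 genes were 2-fold or more higher, and 4.26 (4.07 to 4.45) in set 2. Kept doublets lowered these ratios to 4.14 and 2.84, and clustering without integration to 3.38 and 3.85. In set 2 the thinned share of basal-like cells with Defb50, 66.0%, exceeded that of luminal-like cells, while the basal-like level of 757 CPM was lower, so no order is read from the shares.

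Cluster 0, with the most alpha-defensin, had the least Defb50 of the epithelial clusters of set 2. It held 186 CPM (183 to 190) of Defb50 against 3495 CPM (3478 to 3512) in cluster 2, a log2 ratio of -4.23 (-4.26 to -4.20). Defb50 ranked 3 from the lowest of the 8621 genes, of which 3.05% were 2-fold or more lower. In set 2 leukocyte-like cells held 107 CPM of Defb50, endothelium-like cells 129 CPM and fibroblast-like cells 284 CPM. The Defb50 level of cluster 0 lay between those of leukocyte-like and fibroblast-like cells. Those cells were shallower, with medians of 7459 and 4519 UMIs per cell against 14775 in cluster 0. CPM do not allow for this, and whether cluster 0 exceeded free RNA was not tested. The median cell of cluster 0 had 1 Defb50 UMI. In luminal-like cells of set 2 the median was 93.1 CPM and the 90th percentile was 4942 CPM, while in set 1 the median was 11661 CPM and the range from the 10th to the 90th percentile was 2739 to 41965 CPM. Per cell, Defb50 and the alpha-defensin sum correlated at -0.11 over all luminal-like cells of set 2, but at 0.025 within cluster 0, -0.031 within cluster 1 and -0.056 within cluster 2.

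Defb50 instead moved with Defb1, a beta-defensin that many epithelia make constitutively. Their Spearman correlation was 0.332 over luminal-like cells of set 2, 0.404 in cluster 2 and 0.710 over 1365 thinned cells of set 1. Defb1 itself differed less between the sets, at 4452 CPM in set 1 and 2965 CPM in set 2. With Axin2, Defb50 fell from 2025 CPM in cells with 0 Axin2 UMIs to 796 CPM (738 to 857) in those with 3 or more, and Axin2-positive over negative cells gave -0.71 (-0.74 to -0.68). Cells above and below the median of EGFP did not differ beyond counting error, with 1719 and 1724 CPM.

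Other genes of Paneth cells were not higher in set 2. Of a list of 20, 18 were in the table and 12 reached 5 CPM in luminal-like cells of a set. None was 2-fold higher in set 2, beside 10.1% of all genes, and 7 were lower, beside 17.2%, with a list median of -1.09 on the log2 scale beside -0.17 for all genes. Between clusters 0 and 2 the list was close to all genes, with 1 of 10 higher, 2 lower and a median of -0.10 beside -0.11. Lyz1, the lysozyme that defines Paneth cells, had 1 UMI in luminal-like cells of each set, and Atoh1, needed for secretory fate in the gut, was at 0.0246 CPM in set 2. Mmp7, whose product processes alpha-defensins, was present at 1168 CPM in set 2 and 1988 CPM in set 1. It was lower in cluster 0 (649 CPM) than in cluster 2 (960 CPM), and its Spearman correlation with the alpha-defensin sum was -0.096.

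A list of 19 Wnt targets differed between the sets. Of 17 that reached 5 CPM, 11 were 2-fold or more higher in set 2 (10.1% of all genes were) and 2 were lower (17.2% of all genes were), with a median of 3.46. Among them were Wif1, a secreted Wnt inhibitor, at 384 CPM against 0.697 CPM, Notum, which inactivates Wnt ligands, at 90.7 against 1.12 CPM, and Lgr5, a receptor for R-spondins, at 29.2 against 0.922 CPM. Between clusters 0 and 2 only Cd44 of 17 was 2-fold higher, beside 3.49% of all genes, none was lower, beside 3.05%, and the median was 0.06 beside -0.11 for all genes. Single cells gave a mixed order for these genes beside the alpha-defensin sum, with Spearman correlations of 0.17 for Ccnd1 and 0.14 for Wif1 and of -0.065 for Notum and -0.064 for Myc.

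The genes most like the alpha-defensin sum were sought among 3305 genes seen in at least 10% of thinned luminal-like cells of set 2, defensins left out. The highest Spearman correlations over 7410 cells were those of the calcium-binding S100a6 (0.291), the extracellular matrix gene Ecm1 (0.268), Fam25c (0.240), the ribosomal Rps3 (0.237) and Cd52 (0.237). They were followed by S100a14 (0.219), S100a1 (0.210), Lap3 (0.207), Hspb1 (0.206) and Lgals3 (0.201). Among the lowest were Tspan1 (-0.20), Cldn10 (-0.20), Gulo (-0.19) and Gsta3 (-0.18). Each of these values is smaller than the lowest for pairs of the alpha-defensins over the same pooled cells, and values within clusters were not compared. Gulo and Gsta3 are among the leading genes of cluster 2. EGFP ranked 1200 from the top and Axin2 1698.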

How the data were processed

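Single cells of hARtg-Osr1Cre prostate tissue, 1 PIN and 1 PCa library, were profiled by 3′ UMI counting. Cell Ranger 3.1.0 and mm10 are named in the submitters' processing notes. The authors deposited natural log values, ln(1 + 10000 x UMIs / cell total), for 15742 cells and 19320 features. Whole UMIs were recovered from them, 100% within 0.001 of a whole number, and used as counts. Barcode set 1 held 6332 cells (134850345 UMIs) and set 2 held 9410 (187280119 UMIs). Columns carry no tissue name, so the sets stand for themselves and no test across samples was possible.

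Scrublet (scanpy 1.11.5, expected rate 6%) called 0 doublets at its automatic limit. A limit of 0.25, set after the scores were seen, removed 330 cells (2.10%). The sets were integrated and clustered in Seurat 5.3.0 (R 4.3.3, 2000 variable features, 30 principal components, 20 dimensions, resolution 0.5). The defensin features found by symbol or synonym, Axin2, EGFP and ARQ were left out of the variable features. Clusters were named only from a marker list, with at least 3 markers detected, and are called "-like". The name went to the class with the highest mean marker level, standardised over clusters. For the cluster led by Defa22 and Fam25c this luminal score was only -0.021, with 5 markers detected and 0 among its 10 leading genes. By the same rule clusters 0, 1 and 2 of the epithelial cells clustered again got no name. At resolution 1.0 a cluster of 713 cells led by Tgm3 and Fam25c got none either. The features ARQ and EGFP were read as the transgene and the reporter, going by name.

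UMIs were summed per class or cluster and set and scaled to CPM (per 1000000 UMIs of the group). Exact Poisson, Clopper-Pearson and conditional binomial 95% intervals (scipy 1.17.1, Python 3.11.15) cover counting error only. Cells are not replicates. Ratios used features with 5 CPM in either group, and 2-fold was the limit for a call. Where a group had no UMI, a floor of 3 counts was used. For shares, splits and correlations each cell was thinned to 3000 UMIs. The functions were checked on simulated data.

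The members, gene lists and comparisons were chosen with earlier results of these data known. Named were the members, other defensins with 5 CPM or more, the listed genes, and the 10 highest and 5 lowest correlates, of which 1 is not reported here. Defa17 and Defb9 fell outside this rule and were named after their values were seen. Mptx2, Pla2g2a and Svs1 of the lists were not among the features. Promoter sequences, 250 bases before each start, and coordinates are from RefSeq (GRCm38.p6).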

Additional observations from a re-analysis of the deposited data

How the results depend on the processing

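Of 68 recalculated values, 28 stayed within the counting interval of the value given (for correlations, within 0.05 with the sign kept), 33 moved beyond it and 7 changed sign. The cause was not tested. Comparisons with fibroblast-like or endothelium-like cells as background, and without cells of shared barcodes, were chosen after seeing the data. No paired analysis was possible because the 2 tissues had 1 library apiece, and there was no replicate to leave out.

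With doublets kept, the log2 ratios of luminal-like over leukocyte-like cells were 2.12 for the alpha-defensin sum in set 2, 2.84 for Defb50 in set 2 and 4.14 for Defb50 in set 1. Defb50 in set 2 over set 1 was then -3.06, the EGFP split -0.19 and the correlation with Axin2 0.0041. Without integration the alpha-defensin sum in set 1 reversed to -0.13. Defb50 was 3.85 in set 2 and 3.38 in set 1 over leukocyte-like cells and -2.94 between sets, the EGFP split -0.22 and the Axin2 correlation 0.0012. At resolution 1.0 the sum was 8.77 between sets and 2.27 over leukocyte-like cells of set 2, Defb50 was -3.06 between sets and 5.55 over leukocyte-like cells of set 1, the share of cells 75.0%, the Axin2 split -0.22 and the EGFP split -0.041.

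With every cell weighing the same, the sum was 8.94 between sets and 3.31 over leukocyte-like cells of set 2, and Defb50 was -3.36 between sets and 3.98 and 5.96 over leukocyte-like cells of sets 2 and 1. With thinned cells the sum was 3.38 over leukocyte-like cells in set 2, and Defb50 was -3.39 between sets and 5.99 in set 1. For the sum in set 1 the thinned leukocyte-like cells had no UMI. Its value of 0.033 (lower limit -0.51, no upper limit) therefore rests on the floor of 3 counts and is a bound, not a measured ratio. Scaling without genes over 1% of UMIs gave -3.32 for Defb50 between sets. Over fibroblast-like cells Defb50 was 2.85 in set 2 and 5.94 in set 1, and over endothelium-like cells the sum was 3.76 in set 2.

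Thinning to 6000 UMIs gave a share of 87.4%, an EGFP split of -0.19 and an Axin2 correlation of 0.0032. Cells with 2 or more Axin2 UMIs against 0 gave -0.30, and the highest against the lowest EGFP bin gave -0.30. The median correlation within clusters was 0.0047 with Axin2 and -0.0039 with EGFP, and the deposited log values gave 0.018 with Axin2. All correlations stayed near 0, so their sign is not read.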

Other observations

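Proliferating luminal-like cells of barcode set 2, a cluster led by Ube2c and Birc5, both needed for mitosis, carried the alpha-defensins at a level close to that of all luminal-like cells. The sum was 1770 CPM (1753 to 1786) over 789 cells, and 98.1% of them had at least 1 alpha-defensin UMI (81.8% after thinning, at which leukocyte-like cells had 27.7%). Defb50 stood at 1240 CPM (1226 to 1254) there.

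Other beta-defensins were less abundant than Defb1 and Defb50. Of 23 besides Defb50, 4 reached 5 CPM in clusters 0 or 2 of set 2, and all 4 were at least 2-fold lower in cluster 0 than in cluster 2, as were 3.05% of all genes. Defb1 stood at 1969 and 4710 CPM (log2 ratio -1.26), Defb42 at 9.44 and 24.2 CPM (-1.36), Defb10 at 7.91 and 16.5 CPM (-1.06) and Defb9 at 3.52 and 7.05 CPM.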
